A study of Homo sapiens with 7 samples.

Results

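CtBP1 and CtBP2 are paralogous co-repressors that bind no DNA themselves. They are brought to promoters by DNA-binding proteins and carry histone-modifying enzymes with them. The 9 genes described here were chosen by name from knowledge of the CtBP complex, with earlier results of these data known. The genes encode both CtBP proteins and the core enzymes and scaffolds found with them. They are CTBP1, CTBP2, the histone demethylase KDM1A (LSD1), its CoREST scaffolds RCOR1 and RCOR3, the histone deacetylases HDAC1 and HDAC2, and the H3K9 methyltransferases EHMT1 (GLP) and EHMT2 (G9a). All 9 were measured, among 17958 genes tested. Each value is that of the brightest transcript cluster annotated with that gene's symbol alone, and a transcript cluster is a set of probes for 1 gene summarised as a single log2 signal. In the assembled complex CoREST holds KDM1A to nucleosomes and to HDAC1 or HDAC2, so that acetyl groups are removed from histone tails and methyl groups from H3K4, while EHMT1 and EHMT2 act as a pair that methylates H3K9. CtBP binds NADH through a dehydrogenase-like fold, and in carcinoma cells it is best known for repressing epithelial and pro-apoptotic genes.

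The cells were SKOV3, a human ovarian carcinoma line, infected with lentivirus and kept in puromycin as stable cells. There were 3 arrays of CtBP1 knockdown clones, 2 of CtBP2 knockdown clones and 2 of scramble control clones, each on an Affymetrix Human Gene 1.1 ST array. Per the labels, western blots were used to check the knockdowns at the protein level. Whether the clones were cultured apart is not stated, so p-values measure only how far these arrays spread, and that spread may be technical. CTBP1 does not separate the CtBP1 knockdown arrays from scramble, so they are called the arrays or clones labelled CtBP1 knockdown. The epithelial and ovarian cancer markers ERBB2, KRT8 and KRT18 had log2 signals of 7.36 to 9.58 on the 7 arrays and PAX8 of 6.41 to 8.65. KRT19 lay at 5.70 to 7.20, EPCAM at 4.59 to 6.53 and MSLN at 3.55 to 5.37, and KRT7 ranged most, at 5.65 to 9.65, highest in the CtBP2 knockdown clones. The remaining marker of the 9, WT1, a marker of serous carcinoma, was at 1.92 to 2.21. The 9 fibroblast and endothelial markers lay between 1.64 and 3.32. Of the 5 leukocyte markers measured, CD68 (5.90 to 7.11) was the exception to a range of 1.505 to 2.31.

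Scramble control 1 stood apart from the other arrays, so values against scramble control 2 alone are given beside the differences from scramble of the 9 genes, and beside those of list genes and list medians that this moves by over 1.5 times. Over all genes it correlated with the others at 0.926 to 0.942, against 0.971 to 0.993 among the other 6 arrays. All 9 genes had a lower signal on scramble control 1 than on scramble control 2, as did 51.2% of all genes. Genes were ranked by their mean over the other 6 arrays into 4 equal classes. In the brightest class, which holds 7 of the 9, the median deviation of scramble control 1 from that mean was -0.65 log2 units, and in the next, which holds EHMT1 and EHMT2, it was -0.36. In the dimmer classes, which hold none of the 9, it was 0.11 and, in the dimmest, 0.21. The interquartile range over the genes tested was 2.20 log2 units on scramble control 1, against 2.85 to 3.15 on the other arrays. The median of 18 measured genes of dividing cells, each taken relative to its own 7-array mean, was 0.17, -0.07 and 0.23 in the clones labelled CtBP1 knockdown and 0.39 and 0.46 in the CtBP2 knockdown clones, against -1.58 and 0.56 on scramble controls 1 and 2. The part of these differences in the results was not tested.

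**Figure D1:**
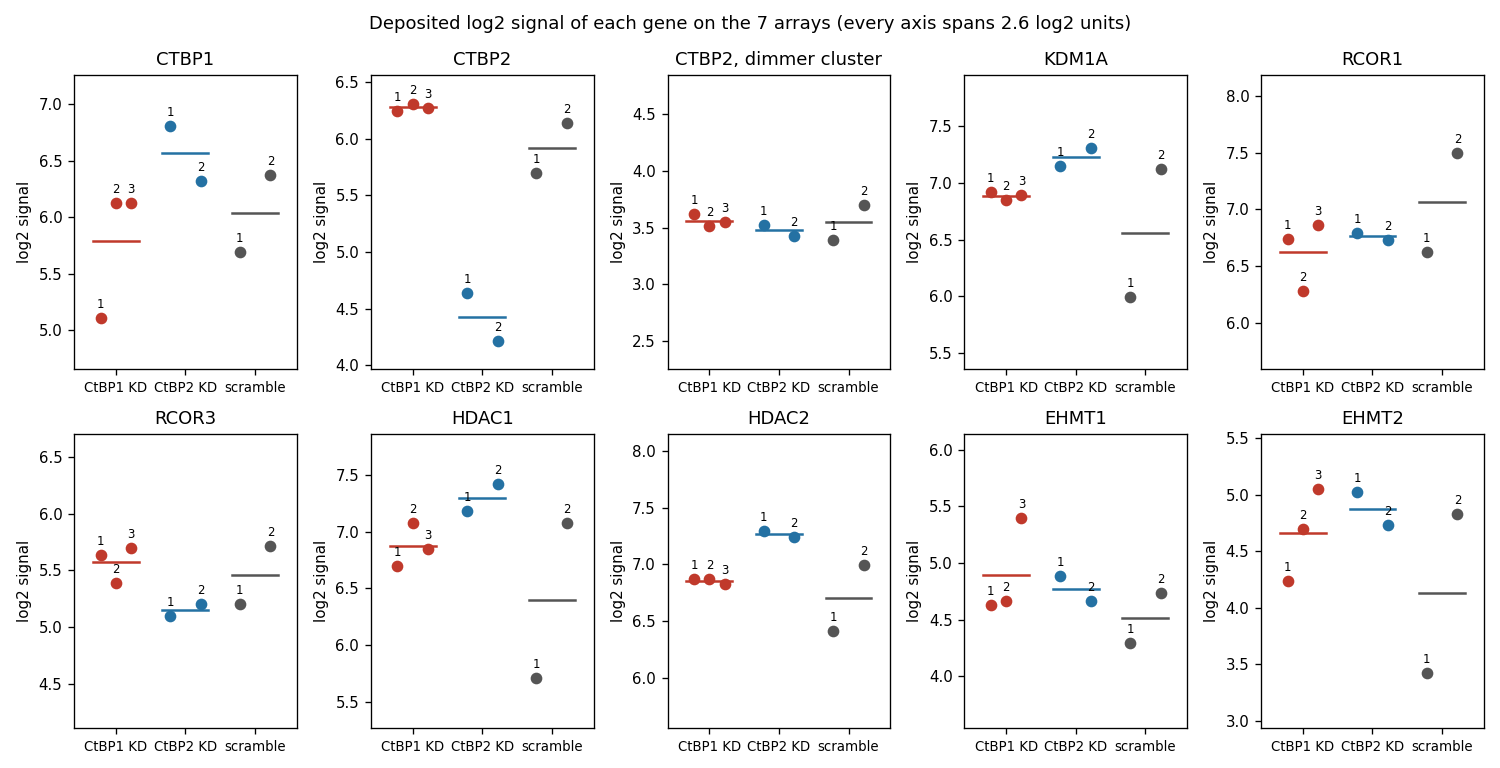
Each panel plots the deposited log2 signal of a gene on the CtBP1 knockdown (CtBP1 KD), CtBP2 knockdown (CtBP2 KD) and scramble arrays, with points numbered by replicate and a line at the group mean. CTBP2 sits at 4.22 and 4.64 in the CtBP2 knockdown clones and at 5.70 or above elsewhere, while its dimmer cluster spans only 0.31 log2 units over all 7 arrays.

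CTBP2 was the gene that separated its own knockdown most clearly. Its log2 signal was 4.64 and 4.22 in the CtBP2 knockdown clones, against 5.70 and 6.14 in the scramble clones, with no overlap. The difference was -1.49 ± 0.21 (SE of the limma fit, 2 arrays against 2), with a 95% confidence interval of -1.99 to -0.98, which is a 1.98-fold to 3.98-fold lower signal. With limma's Benjamini-Hochberg adjustment over all genes it did not pass the threshold of 0.05 (adjusted p = 0.18, unadjusted p = 3.54e-04). By unadjusted p it ranked 34 of 17958 genes, and by its difference it ranked 36 from the most negative. Against scramble control 2 alone the difference was -1.71, and against scramble control 1 alone it was -1.27 (adjusted p = 0.187 and 0.0177). In the fit that gives 0.0177, scramble control 1 is the lone control, assumed to vary like the other groups, and 22% of all genes passed. These signals come from bulk RNA, so fewer cells holding the transcript and less transcript per cell cannot be told apart.

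The direct comparison of the knockdowns does not use the scramble arrays for the difference itself. CTBP2 had signals of 6.25, 6.31 and 6.27 in the clones labelled CtBP1 knockdown, against 4.64 and 4.22 in the CtBP2 knockdown clones. The 3 CtBP1 knockdown values, with an SD of 0.03, lay above every other array. The difference was 1.85 ± 0.19 (SE), a 3.60-fold higher signal with an interval of 2.61-fold to 4.95-fold, and ranked 7 of 17958 by unadjusted p (6.37e-05, adjusted p = 0.129). Fitted on these 5 arrays alone, the adjusted p was 0.0743, and with array weights it was 0.0155, which passes the threshold as 1.51% of all genes do in that fit. The difference was 2.06 without CtBP2 knockdown array 1 (adjusted p = 1) and 1.64 without array 2 (adjusted p = 0.722).

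CTBP2 has a second, dimmer transcript cluster that did not share this pattern. The platform annotation gives 1 RefSeq transcript for the brighter cluster and 3 for the dimmer. The dimmer cluster had signals of 3.62, 3.51 and 3.55 in the clones labelled CtBP1 knockdown and 3.52 and 3.43 in the CtBP2 knockdown clones, against 3.40 and 3.70 in the scramble clones. Every group overlapped the scramble arrays there. The difference between CtBP2 knockdown and scramble was -0.07 (interval -0.43 to 0.28), so the 2 clusters disagree on the size of the change. When a gene's clusters were averaged, the CTBP2 difference was -0.78 for CtBP2 knockdown against scramble and 0.97 for CtBP1 knockdown against CtBP2 knockdown.

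CTBP2 was also higher on all 3 arrays labelled CtBP1 knockdown than on both scramble arrays (6.25, 6.31 and 6.27, against 5.70 and 6.14). The difference was 0.36 (interval -0.10 to 0.82, adjusted p = 0.734). Against scramble control 2 alone it was 0.14, and against scramble control 1 alone 0.58. CTBP2 was the 1 gene of the 9 whose CtBP1 knockdown and scramble groups did not overlap, where 14.4% of all genes had separated groups.

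CTBP1 did not separate the CtBP1 knockdown arrays from scramble. Its signals were 5.11, 6.13 and 6.13 in the clones labelled CtBP1 knockdown, of which arrays 2 and 3 hold an identical value, against 5.69 and 6.37 in the scramble clones. Array 1 was the lowest of all 7, and the other 2 lay between the controls. The difference was -0.25 (interval -1.20 to 0.71, adjusted p = 0.849), and turned to 0.093 without CtBP1 knockdown array 1 and likewise to 0.093 without scramble control 2. Without scramble control 1 it was -0.59. The interval spans a 2.30-fold lower signal, so these arrays do not limit the change closely.

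On the CtBP2 knockdown arrays CTBP1 had signals of 6.81 and 6.32, against 5.69 and 6.37 in the scramble clones. The groups overlapped, and the difference was 0.53 (interval -0.52 to 1.58, adjusted p = 0.6), or 0.19 against scramble control 2 alone. Between the knockdowns, all 3 arrays labelled CtBP1 knockdown were below both CtBP2 knockdown arrays for CTBP1, by -0.78 (interval -1.73 to 0.18, adjusted p = 0.766). That difference was -0.44 without CtBP1 knockdown array 1.

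**Figure D2:**
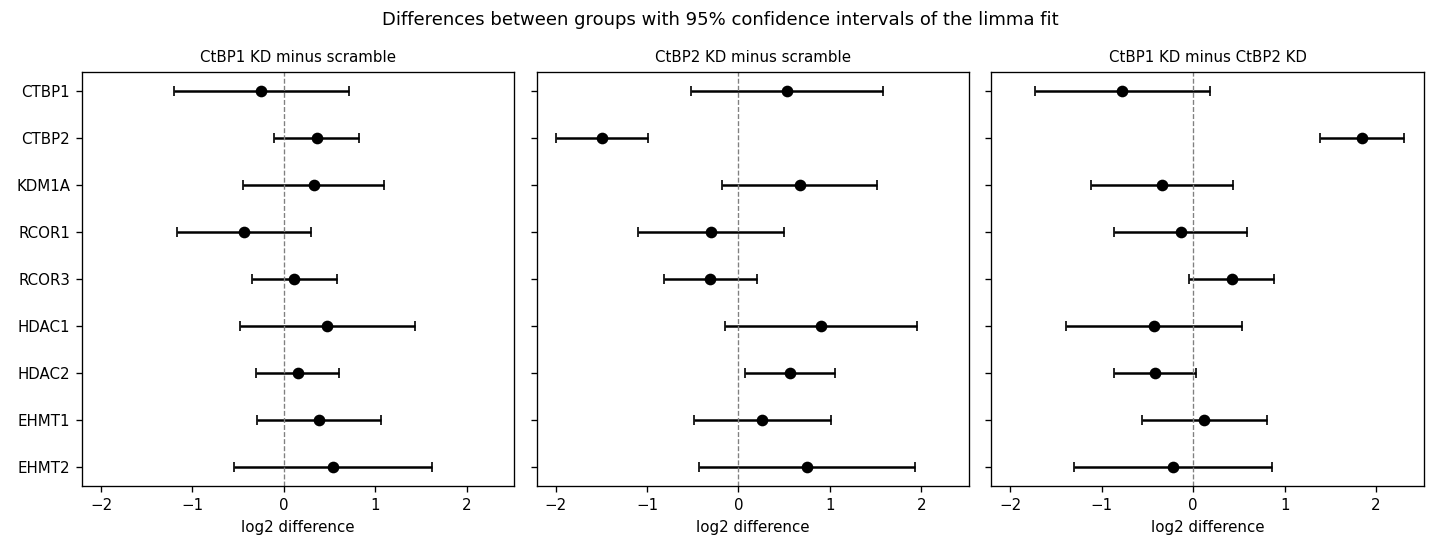
Points are log2 differences between groups (CtBP1 knockdown and CtBP2 knockdown against scramble, and CtBP1 knockdown against CtBP2 knockdown, KD in the panel titles) and bars are 95% confidence intervals of the limma fit on all 7 arrays. The CTBP2 intervals in the panels with CtBP2 knockdown lie farthest from 0, at -1.99 to -0.98 against scramble and 1.39 to 2.31 in the direct comparison.

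None of the 9 genes passed the limma test in any of the 3 comparisons at an adjusted p under 0.05. Over all genes the test called 0% for CtBP1 knockdown against scramble, 0.00557% (1 gene) for CtBP2 knockdown against scramble and 0% for CtBP1 knockdown against CtBP2 knockdown. At an unadjusted p under 0.05 the counts were 0 of 9 for the arrays labelled CtBP1 knockdown, beside 4.79% of all genes, and 2 of 9 (CTBP2 and HDAC2) for CtBP2 knockdown, beside 10.2%. In the direct comparison it was 1 of 9 (CTBP2), beside 7.77%. Groups did not overlap for 5 of 9 genes between CtBP2 knockdown and scramble (41% of all genes), and for 6 of 9 between the knockdowns (32% of all genes).

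KDM1A, the demethylase, had signals of 6.92, 6.85 and 6.90 in the clones labelled CtBP1 knockdown and 7.15 and 7.31 in the CtBP2 knockdown clones, against 5.998 and 7.12 in the scramble clones. Only scramble control 1 was low, and both CtBP2 knockdown arrays were above every other array. The difference from scramble was 0.33 (interval -0.44 to 1.10) for the labelled CtBP1 knockdown and 0.67 (interval -0.18 to 1.51) for the CtBP2 knockdown. Against scramble control 2 alone these values were -0.23 and 0.11. Between the knockdowns the groups did not overlap, with a difference of -0.34 (interval -1.11 to 0.43, adjusted p = 0.953).

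HDAC1 had signals of 6.70, 7.08 and 6.85 in the clones labelled CtBP1 knockdown and 7.18 and 7.42 in the CtBP2 knockdown clones, against 5.71 and 7.08 in the scramble clones. Scramble control 1 was again the low array, by 1.34 log2 units below the mean of the other 6. HDAC1's difference from scramble was 0.48 (interval -0.48 to 1.43) for the labelled CtBP1 knockdown and 0.90 (interval -0.14 to 1.95, adjusted p = 0.52) for the CtBP2 knockdown. Against scramble control 2 alone they were -0.21 and 0.22.

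HDAC2, its close paralog, had signals of 6.87, 6.87 and 6.83 in the clones labelled CtBP1 knockdown and 7.30 and 7.24 in the CtBP2 knockdown clones, against 6.41 and 6.997 in the scramble clones. The CtBP2 knockdown arrays were the highest, and every array labelled CtBP1 knockdown lay between the controls, arrays 1 and 2 with an identical value. The CtBP2 knockdown difference from scramble was 0.57 (interval 0.07 to 1.06, unadjusted p = 0.0306, adjusted p = 0.45), and 0.27 against scramble control 2 alone. Between the knockdowns HDAC2 differed by -0.42 (interval -0.87 to 0.03, adjusted p = 0.698), and by -0.44 to -0.39 without any 1 array.

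KDM1A had profiles close to those of both deacetylases over the 7 arrays. With each profile centred on its own mean, the root mean square difference was 0.17 log2 units between KDM1A and HDAC1 and also 0.17 between KDM1A and HDAC2, the closest of the 36 pairs, and 0.29 between HDAC1 and HDAC2. The widest pair, at 1.15, was CTBP1 and CTBP2. EHMT2 lay nearer to HDAC1 (0.26) and to KDM1A (0.28) than HDAC2 did to HDAC1. Without scramble control 1 the 3 pairs of KDM1A, HDAC1 and HDAC2 were the closest of the 36. Those pairs were at 0.14 (KDM1A and HDAC1), 0.089 (KDM1A and HDAC2) and 0.14 (HDAC1 and HDAC2). How many pairs among all genes lie as close was not counted. For that likeness without scramble control 1, the promoters of these 3 genes are printed here from RefSeq, from 250 bases before to 50 after the annotated start. Capitals mark matches on either strand to GGGCGG (the GC box bound by SP and Krüppel-like factors), CCAAT (the box bound by NF-Y), CACCTG (the E-box bound by ZEB factors, which bring CtBP) or TTTGAA (the cell cycle homology region).
KDM1A promoter, GRCh38.p14 chr1:23019218-23019517, plus strand: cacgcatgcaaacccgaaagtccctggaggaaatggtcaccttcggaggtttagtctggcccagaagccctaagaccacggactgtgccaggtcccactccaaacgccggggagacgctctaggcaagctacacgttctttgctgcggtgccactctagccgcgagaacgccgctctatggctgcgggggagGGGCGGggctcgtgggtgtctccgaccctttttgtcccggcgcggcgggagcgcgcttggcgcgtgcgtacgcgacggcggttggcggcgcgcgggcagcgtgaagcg
HDAC1 promoter, GRCh38.p14 chr1:32291833-32292132, plus strand: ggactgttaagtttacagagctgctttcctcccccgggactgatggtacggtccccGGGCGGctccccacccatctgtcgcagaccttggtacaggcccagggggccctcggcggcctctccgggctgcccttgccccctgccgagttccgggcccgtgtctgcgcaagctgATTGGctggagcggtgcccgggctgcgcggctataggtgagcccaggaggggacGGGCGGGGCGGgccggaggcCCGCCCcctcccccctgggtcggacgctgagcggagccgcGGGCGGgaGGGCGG
HDAC2 promoter, GRCh38.p14 chr6:113971099-113971398, minus strand: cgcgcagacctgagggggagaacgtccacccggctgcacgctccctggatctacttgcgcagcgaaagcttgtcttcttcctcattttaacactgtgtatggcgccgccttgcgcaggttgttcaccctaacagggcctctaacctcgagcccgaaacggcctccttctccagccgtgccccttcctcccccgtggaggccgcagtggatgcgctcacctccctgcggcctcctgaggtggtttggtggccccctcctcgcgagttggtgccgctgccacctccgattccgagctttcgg
KDM1A's window held 1 GC box, HDAC1's held 6 and 1 CCAAT box, and HDAC2's held no match to any of the 4 motifs. A pair of the HDAC1 GC boxes overlap by 1 base. Of 35116 RefSeq promoters of the same length, 45% held a GC box, 34.6% a CCAAT box, 20.6% the E-box and 15.2% TTTGAA. None of these 4 motifs matched all 3 windows.

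**Figure D3:**
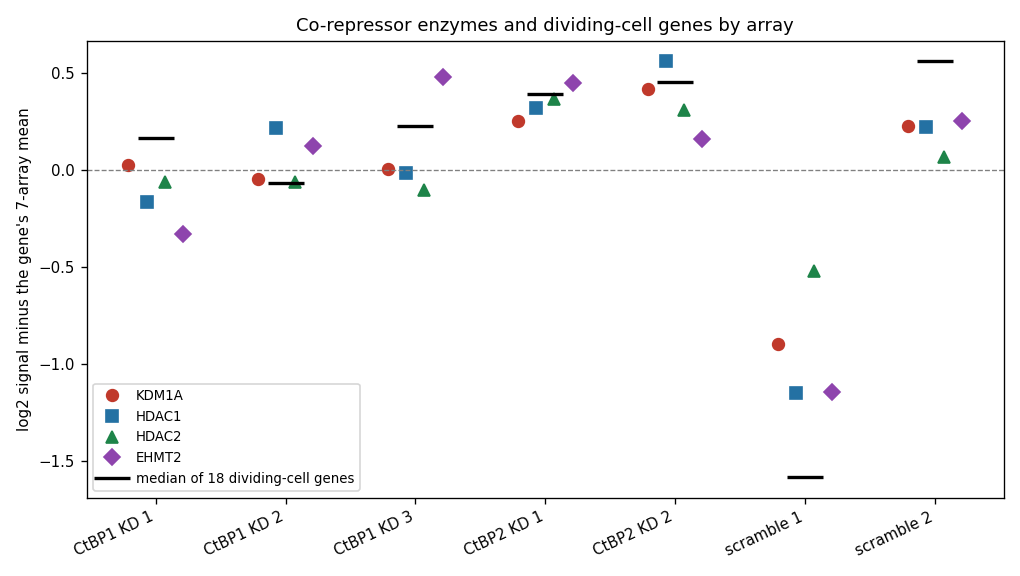
The log2 signal of KDM1A, HDAC1, HDAC2 and EHMT2 minus each gene's 7-array mean is plotted by array, with a bar at the median of 18 dividing-cell genes treated likewise (KD, knockdown). All 4 enzymes and the dividing-cell median, at -1.58, are lowest on scramble control 1. Of the 9 genes 5 are lowest there, as are 32.4% of all genes. CTBP1, CTBP2, RCOR1 and RCOR3, which are not plotted, are lowest on another array.

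EHMT2 had the widest range of the enzymes over the 7 arrays after HDAC1, at 1.62 log2 units against 1.71. EHMT2's SE was the larger, at 0.44 against 0.39 for the labelled CtBP1 knockdown against scramble. Its signals were 4.24, 4.69 and 5.05 in the clones labelled CtBP1 knockdown and 5.02 and 4.73 in the CtBP2 knockdown clones, against 3.43 and 4.82 in the scramble clones. Scramble control 1 was lowest, and scramble control 2 lay within both knockdown groups. Differences from scramble were 0.53 (interval -0.55 to 1.62) for the labelled CtBP1 knockdown and 0.75 (interval -0.44 to 1.94) for the CtBP2 knockdown, and -0.16 and 0.05 against scramble control 2 alone. EHMT2 has 2 transcript clusters, whose deposited values are identical on all 7 arrays and so are not separate evidence.

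EHMT1, its partner, had signals of 4.63, 4.67 and 5.39 in the clones labelled CtBP1 knockdown and 4.89 and 4.66 in the CtBP2 knockdown clones, against 4.29 and 4.73 in the scramble clones. Array 3 labelled CtBP1 knockdown stood above the rest. The differences from scramble were 0.38 (interval -0.30 to 1.07) and 0.26 (interval -0.49 to 1.01) for the labelled CtBP1 and the CtBP2 knockdown, and 0.16 and 0.040 against scramble control 2 alone. Without CtBP1 knockdown array 3 the labelled CtBP1 knockdown difference was 0.14.

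RCOR1, the main CoREST scaffold, had signals of 6.74, 6.28 and 6.86 in the clones labelled CtBP1 knockdown and 6.79 and 6.73 in the CtBP2 knockdown clones, against 6.62 and 7.50 in the scramble clones. Scramble control 2 was above all 5 knockdown arrays, while scramble control 1 lay among them. The differences were -0.44 (interval -1.17 to 0.29) for the labelled CtBP1 knockdown and -0.30 (interval -1.10 to 0.50) for the CtBP2 knockdown. Without scramble control 1 they were -0.88 and -0.74, and without scramble control 2 they were 0.0013 and 0.14.

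RCOR3, a CoREST paralog, had signals of 5.63, 5.38 and 5.70 in the clones labelled CtBP1 knockdown and 5.10 and 5.20 in the CtBP2 knockdown clones, against 5.20 and 5.71 in the scramble clones. Both CtBP2 knockdown arrays were below every other array, although array 2 and scramble control 1 are both 5.20 when rounded. RCOR3 differed from scramble by -0.31 (interval -0.82 to 0.20) in the CtBP2 knockdown clones and by 0.11 (interval -0.35 to 0.58) in those labelled CtBP1 knockdown. Against scramble control 2 alone these values were -0.56 and -0.14. Between the knockdowns the groups did not overlap, at 0.42 (interval -0.04 to 0.89, adjusted p = 0.705). That value ran from 0.36 to 0.51 when any 1 array was left out. RCOR3's adjusted p was 0.251 in a limma fit on the 5 knockdown arrays alone.

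**Figure D4:**
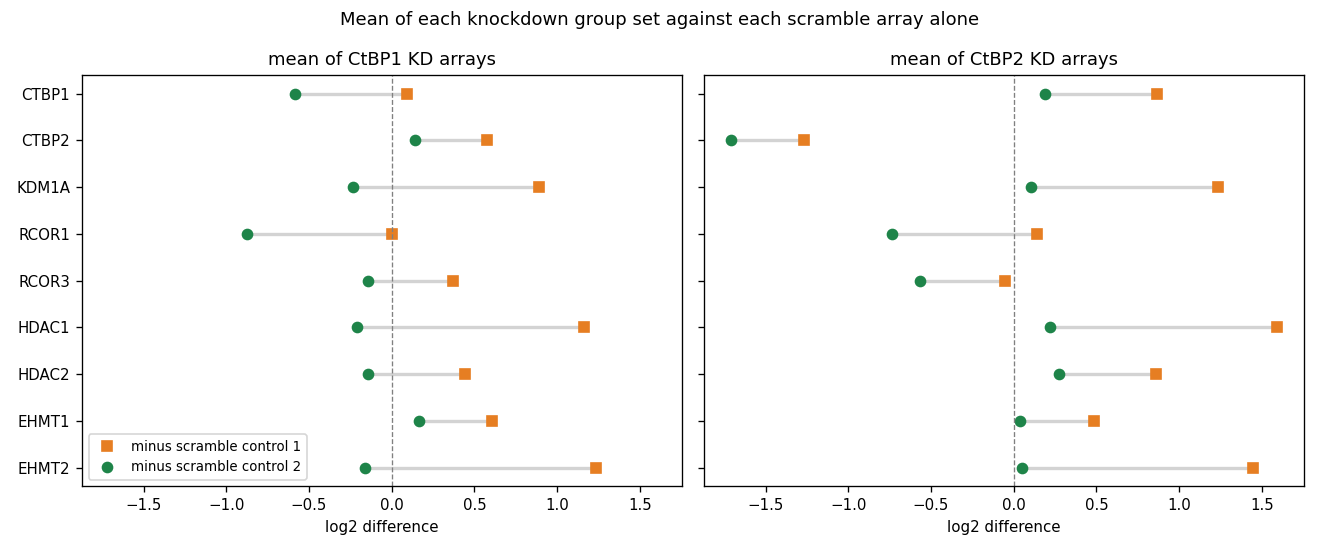
For each gene, the mean of the arrays labelled CtBP1 knockdown (left) and of the CtBP2 knockdown arrays (right), KD in the titles, is set against each scramble array alone on the log2 scale. HDAC1 on the right moves between 1.59 against scramble control 1 and 0.22 against scramble control 2, while CTBP2 is at -1.27 and -1.71 against the same controls.

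Set against scramble control 2 alone, 2 of the 9 genes were higher in the clones labelled CtBP1 knockdown, with a median difference of -0.16 over the 9, beside 45.2% of all genes and an all-gene median of -0.0182, where all arrays gave 7 of 9 (49.2% of all genes) and a median of 0.33. For CtBP2 knockdown 6 of 9 were higher either way (47.3% of all genes with all arrays), with a median of 0.05 without scramble control 1 and 0.53 with it. Without scramble control 1, 42.6% of all genes were higher for CtBP2 knockdown, with an all-gene median of -0.0298. Between the knockdowns 3 of 9 were above 0 (53.2% of all genes), with a median of -0.215. The medians over all genes with all arrays were -0.0047, -0.0204 and 0.0145 in these 3 comparisons. Fits without scramble control 2, which leave scramble control 1 as the lone control and assume that it varies like the other groups, put 3 of 9 genes past the threshold for the labelled CtBP1 knockdown (18.2% of all genes) and 5 of 9 for CtBP2 knockdown (22% of all genes).

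A list of 12 other genes, subunits of the CoREST complex and factors linked to it, had 11 measured. It gave 0 genes past the test in each comparison. At an unadjusted p under 0.05 the counts were 0 for the labelled CtBP1 knockdown, 1 for the CtBP2 knockdown and 1 between the knockdowns. Over all genes the shares were 4.79%, 10.2% and 7.77%, and these apply to the later lists too. The median difference of this list was -0.01 for the labelled CtBP1 knockdown, -0.07 for the CtBP2 knockdown and 0.08 between the knockdowns. Without scramble control 1 the medians against scramble were -0.14 and -0.18, with 2 and 3 of 11 genes above 0, where all arrays gave 5 and 4. Of all genes, 45.2% and 42.6% were above 0 without scramble control 1, and 49.2% and 47.3% with all arrays. PHF21A, the subunit that reads unmethylated H3K4, had signals of 6.13, 5.89 and 6.38 in the clones labelled CtBP1 knockdown and 5.37 and 5.38 in the CtBP2 knockdown clones, against 5.82 and 6.30 in the scramble clones. It was lowest on both CtBP2 knockdown arrays, with a difference of -0.68 ± 0.22 from scramble (SE, adjusted p = 0.431) and 0.76 ± 0.21 between the knockdowns (adjusted p = 0.443). The zinc finger subunit ZMYM2 differed from scramble by -0.47 ± 0.20 in the CtBP2 knockdown clones, and by -0.25 without scramble control 1. GSE1 differed between the knockdowns by 0.34 ± 0.19. GFI1, a DNA-binding repressor that uses this complex, had a difference of -0.08 ± 0.10 for the labelled CtBP1 knockdown, at signals near 2.

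Among other proteins of the CtBP complex, 6 of 8 listed genes were measured and 0 passed the test in each comparison, with 1, 0 and 1 at an unadjusted p under 0.05 in the same order. The median difference was 0.03 for the labelled CtBP1 knockdown, -0.09 for the CtBP2 knockdown and 0.13 between the knockdowns. Both medians against scramble were, without scramble control 1, within 0.0038 of 0. HIPK2, a kinase that phosphorylates CtBP and marks it for degradation, had signals of 6.81, 6.79 and 7.24 in the clones labelled CtBP1 knockdown, against 6.02 and 6.41 in the scramble clones. All 3 were above both controls, by 0.73 ± 0.20 (SE, adjusted p = 0.734) and by 0.53 without scramble control 1. On both CtBP2 knockdown arrays HIPK2 held the value of scramble control 2 exactly (6.41). Such identical values on 2 or more arrays occurred for 7180 genes (40%). ZEB1, a DNA-binding partner, had signals of 5.62 and 5.78 in the CtBP2 knockdown clones, against 5.90 and 6.52 in the scramble clones (-0.51 ± 0.22, adjusted p = 0.501), and differed by -0.82 without scramble control 1. CDYL, a chromodomain co-repressor, differed by -0.48 ± 0.24 for the labelled CtBP1 knockdown and by -0.09 without scramble control 1. ZEB2 differed by -0.50 ± 0.27 for the CtBP2 knockdown at signals of 1.88 to 2.84 in those groups, and by -0.10 without scramble control 1. RREB1 differed by 0.24 ± 0.14 between the knockdowns.

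Of 13 other genes of H3K9 methylation, all measured, 0 passed the test and 2, 1 and 2 had an unadjusted p under 0.05, with medians of 0.20, 0.23 and -0.0039 for the labelled CtBP1 knockdown, the CtBP2 knockdown and the direct comparison. The medians against scramble without scramble control 1 turned to -0.18 and -0.10, with 5 and 4 of 13 genes above 0, where all arrays gave 9 and 8. The shares of all genes above 0 were 45.2% and 42.6% without scramble control 1, and 49.2% and 47.3% with all arrays. KDM3A, an H3K9 demethylase induced by hypoxia, had signals of 4.49, 4.19 and 3.98 in the clones labelled CtBP1 knockdown and 5.28 and 5.31 in the CtBP2 knockdown clones, against 4.90 and 4.61 in the scramble clones. The 3 groups did not overlap, with the labelled CtBP1 knockdown lowest and the CtBP2 knockdown highest. It differed by -1.07 ± 0.18 between the knockdowns (SE, adjusted p = 0.225). CBX5, which encodes the H3K9 methyl reader HP1 alpha, ran the opposite way, with 9.90, 10.02 and 9.53 in the clones labelled CtBP1 knockdown and 8.996 and 8.987 in the CtBP2 knockdown clones, against 9.02 and 9.37 in the scramble clones. Its difference between the knockdowns was 0.82 ± 0.19 (adjusted p = 0.333). The methyltransferase SUV39H1 differed from scramble by 0.93 ± 0.40 in the CtBP2 knockdown clones and by 0.34 without scramble control 1.

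The 9 other histone deacetylases gave 0 genes past the test and 0 at an unadjusted p under 0.05, with medians of 0.07, 0.11 and 0.0055 in the same order of comparisons. Those against scramble turned to -0.084 and -0.0067 without scramble control 1. HDAC7 differed by 0.85 ± 0.38 for CtBP2 knockdown against scramble, and by 0.26 without scramble control 1, while HDAC8 differed between the knockdowns by 0.66 ± 0.58. The NuRD, SIN3 and NCoR complexes also contain HDAC1, HDAC2 or a related enzyme, and 16 of 18 listed genes were measured, again with 0 past the test, 0, 1 and 2 at an unadjusted p under 0.05, and medians of 0.27, 0.16 and -0.07. Their medians without scramble control 1 were 0.02 and 0.07 for the labelled CtBP1 and the CtBP2 knockdown. MTA2, a NuRD subunit, had signals of 7.22 and 7.04 in the CtBP2 knockdown clones, against 6.11 and 6.64 in the scramble clones (0.76 ± 0.20, adjusted p = 0.369), and differed by 0.49 without scramble control 1. GATAD2A differed from scramble by 1.03 ± 0.47 for the labelled CtBP1 knockdown and 1.23 ± 0.52 for the CtBP2 knockdown, and by 0.19 and 0.39 without scramble control 1. MBD3 differed by 0.36 ± 0.15 for the labelled CtBP1 knockdown, and by 0.14 without scramble control 1. GATAD2B differed by 0.61 ± 0.25 between the knockdowns.

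Genes that CtBP is known to repress were given as a list of 10, with 9 measured, 0 past the test, and 1, 1 and 0 at an unadjusted p under 0.05. Their medians were -0.05 for the labelled CtBP1 knockdown, 0.07 for the CtBP2 knockdown and -0.16 between the knockdowns, where 0 of 9 were above 0, beside 53.2% of all genes. Medians against scramble were, without scramble control 1, 0.043 and 0.14, with 6 and 8 of 9 genes above 0, where all arrays gave 3 and 6. All genes gave shares above 0 of 45.2% and 42.6% without scramble control 1, and 49.2% and 47.3% with all arrays. BAX, which permeabilises mitochondria in apoptosis, had signals of 4.998, 5.58 and 5.26 in the clones labelled CtBP1 knockdown and 5.55 and 5.33 in the CtBP2 knockdown clones, against 4.46 and 4.84 in the scramble clones. All 5 knockdown arrays were above both controls, by 0.63 ± 0.22 (adjusted p = 0.734) and 0.79 ± 0.24 (adjusted p = 0.396), and by 0.44 and 0.60 without scramble control 1. CDH1, which encodes E-cadherin, had dim signals of 3.27 and 2.63 in the CtBP2 knockdown clones, against 2.5996 and 2.37 in the scramble clones. The difference was 0.47 ± 0.27 (adjusted p = 0.536). CDH1 was at 2.81, 2.36 and 2.37 in the clones labelled CtBP1 knockdown, so array 1 there lay above CtBP2 knockdown array 2. PERP and PMAIP1, both p53-regulated genes of apoptosis, differed between the knockdowns by -0.58 ± 0.27 and -0.53 ± 0.30. The genes of these lists were named for the smallest unadjusted p among those with separated groups on these same arrays, so their values are descriptions.

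The genes with profiles most like that of CTBP2 over the 7 arrays were C2orf49, PCDHB15 and LOC100128288. Their centred profiles differed from CTBP2's by a root mean square of 0.31, 0.34 and 0.345 log2 units in that order. C2orf49 had signals of 6.48, 6.25 and 6.05 in the clones labelled CtBP1 knockdown and 4.96 and 4.81 in the CtBP2 knockdown clones, against 5.79 and 5.77 in the scramble clones. For CTBP1 the nearest genes were DMAC1, HMGB1 and PWP2, at 0.18, 0.18 and 0.19. HMGB1 was dim, at 2.13 to 3.51 over the 7 arrays. DMAC1 had signals of 4.28, 5.15 and 5.39 in the clones labelled CtBP1 knockdown and 5.57 and 5.64 in the CtBP2 knockdown clones, against 4.83 and 5.34 in the scramble clones, and shares with CTBP1 the low value on array 1. These are the closest of 17949 genes over only 7 arrays.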

How the data were processed

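The authors deposited a table of log2 signals for 33297 transcript clusters on 7 arrays. The submitters' processing notes name Affymetrix Expression Console and RMA. How RNA was extracted is not settled, since a column kit and TRIzol are both named. RMA corrects background, equalises the probe distributions and summarises probes by median polish, which can compress changes. Scale and direction follow from that, while any further centring and the genome build are not given in the sources used here. Column medians were 2.68, 2.71 and 2.67 (CtBP1 knockdown), 2.62 and 2.63 (CtBP2 knockdown) and 2.93 and 2.62 (scramble). Arrays give no read depth, so their number limits the precision.

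Groups came from the sample titles. The platform annotation gives 1 symbol for 19181 clusters, several for 2055 and is without an entry for 12061. Symbols were updated through Entrez identifiers with RefSeq GRCh38.p14, and the brightest cluster by 7-array mean stood for each of 17958 genes. No dim gene was removed. A limma 3.58.1 model (R 4.3.3) of 3 group means was fitted to all 7 arrays with default eBayes, two-sided, with Benjamini-Hochberg adjustment over all genes and a threshold of 0.05. Intervals are 95% intervals of that fit. The script was tested on simulated data. The genes and lists were chosen with earlier results of these data known. Named list genes were up to 2 per list and comparison with the smallest unadjusted p among those with separated groups, and for likeness the 3 nearest genes. Some listed genes are not analysed here. Alternatives were renewed quantile normalization, median centring, a filter at a mean of 4, the mean of a gene's clusters, all clusters tested, a variance trend, robust eBayes, array weights, 2-group fits, blocking on the replicate number, and fits that leave out 1 array. List medians under these alternatives were added after seeing the data. Figures used matplotlib 3.10.9.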

Additional observations from a re-analysis of the deposited data

Results flagged for a closer look

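CTBP2, KDM3A and CBX5 stood on opposite sides of both scramble arrays in the 2 knockdowns, on every array. CTBP2 was higher on the arrays labelled CtBP1 knockdown and lower on the CtBP2 knockdown arrays, with a difference of 1.85 on the log2 scale between the knockdowns (limma, adjusted p = 0.129). CBX5 had the same arrangement at 0.82 (adjusted p = 0.333), and KDM3A the reverse at -1.07 (adjusted p = 0.225). That difference between the knockdowns was tested directly and did not pass for any of the 3 genes, which were picked out for this arrangement. How many of all genes have it was not counted. Groups did not overlap for 14.4% of all genes in CtBP1 knockdown against scramble, 41% in CtBP2 knockdown against scramble and 32% between the knockdowns. CBX5's CtBP2 knockdown signals, 8.996 and 8.987, lay close below scramble control 1, at 9.02. The dimmer CTBP2 cluster did not have the arrangement, as every group overlapped the scramble arrays there.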

How the results depend on the processing

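Over 27 member differences and 17 alternatives, 435 of 459 values kept their direction and their side of the threshold, 15 changed sign and 9 passed the threshold. Much of this agreement was fixed in advance. The filter, all clusters tested, the variance trend, robust eBayes and the 2-group fits leave a difference unchanged. So does leaving out an array that is not in the comparison. No member passed in the main fit, so most values stay on that side by default. When 1 array was left out, CTBP1 in the labelled CtBP1 knockdown against scramble ran from -0.59 to 0.093, above 0 without scramble control 2 or CtBP1 knockdown array 1. In the same comparison, KDM1A ran from -0.23 to 0.89, RCOR3 from -0.14 to 0.37, HDAC1 from -0.21 to 1.16, HDAC2 from -0.14 to 0.44 and EHMT2 from -0.16 to 1.23, each below 0 without scramble control 1. RCOR1 ran from -0.88 to 0.0013 there and from -0.74 to 0.14 in CtBP2 knockdown against scramble, above 0 without scramble control 2. Between the knockdowns RCOR1 ran from -0.25 to 0.037, above 0 without CtBP1 knockdown array 2, and EHMT1 from -0.13 to 0.26, below 0 without CtBP1 knockdown array 3. Renewed quantile normalization turned RCOR3 to -0.12 and HDAC2 to -0.042 in the labelled CtBP1 knockdown against scramble, and EHMT1 to -0.051 in CtBP2 knockdown against scramble. The cause was not tested.

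CTBP2 in CtBP2 knockdown against scramble ran from -1.71 to -1.27 when 1 array was left out, and passed at -1.27 without scramble control 2 (adjusted p = 0.0177), over a range of adjusted p from 0.0177 to 0.93. Between the knockdowns CTBP2 ran from 1.64 to 2.06 and passed with array weights, at 1.85 (adjusted p = 0.0155), over a range of adjusted p from 0.0155 to 1. Genes past the threshold numbered 0 to 3262 for the labelled CtBP1 knockdown against scramble and 0 to 3952 for CtBP2 knockdown against scramble when 1 array was left out, and members 0 to 3 and 0 to 5. In CtBP2 knockdown against scramble the count of 1 gene became 3 with the filter at a mean of 4, and 0 with all clusters tested, robust eBayes, array weights, the replicate block or the 2-group fit. Between the knockdowns the count of 0 became 7 after renewed quantile normalization and 272 with array weights, CTBP2 being the 1 of 9 members called there.

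The replicate numbers gave no sign of pairing the arrays. Deviations of same-numbered arrays from their group means correlated at -0.354 to 0.098. In a group of 2 arrays the deviations mirror each other, so these correlations are not independent. With the replicate number as a block, 0 genes were called in each comparison, and EHMT1 between the knockdowns turned to -0.13. Only the CtBP1 knockdown has a replicate 3, so the block gives the same difference as leaving that array out. With groups of 2 and 3 arrays and no read depth, the intervals of the members are up to 2.37 log2 units wide, which limits what could be called.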
